A study of Homo sapiens with 16 samples.

Results

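This report concerns 37 genes of glycolysis and of the response to low oxygen, measured in the breast cancer lines HCC70 and MDA-MB-468. They were listed by name in 4 roles: 17 glycolytic enzymes, 6 genes that carry sugar or lactate or control glycolysis, 13 other hypoxia-induced genes, and HIF1A. A transcript cluster, the set of array probes that the platform assigns to a transcript, stood for a gene only if it carried exactly 1 gene symbol. Of the 33297 clusters on the array, 34 were taken for members on this rule, and TPI1, which had more than 1 such cluster, was represented by the brightest. A cluster was tested when at least 2 of 16 arrays reached a log2 signal of 6, called the floor here, and 31 members passed: 15 glycolytic enzymes, 4 of transport and control, 11 other hypoxia-induced genes and HIF1A. ALDOC ran from 4.44 to 4.93, SLC2A3 from 3.29 to 3.77 and ANKRD37 from 5.14 to 6.03 over the 16 arrays and were not tested. The 5 clusters that carry the symbol PGAM1, a phosphoglycerate mutase, carry PGAM4 as well, so they were not counted as a member. SLC16A3 and CA9 were not analysed here.

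Both lines are established human lines of the basal-like type of breast cancer. The 16 arrays formed 8 groups of 2: HCC70 cells stably infected with an shRNA against EZH2 (shEZH2) and with a scrambled shRNA (set a), MDA-MB-468 cells with shEZH2 and with scrambled shRNA, HCC70 cells with an shRNA against EED (shEED) and with scrambled shRNA (set b), and HCC70 cells with an EZH2 cDNA (labelled fip EZH2) and with an empty vector (labelled plKO Puro). EZH2 is the catalytic subunit, and EED a core subunit, of Polycomb repressive complex 2, which represses genes by methylating a histone. All infected cells were selected with puromycin and seeded at equal confluence 24 h before RNA was taken. No group is labelled as hypoxic, and for the oxygen level of the cultures the sources used here give no value. No label says that duplicates were separate cultures, so every p-value measures the spread between these arrays, which may be technical. With 2 arrays a group, groups with little change can also fail to overlap, so non-overlap is given as description only. Its share over all clusters was not worked out. That set a belongs to shEZH2 and set b to shEED was read from the order of the sample codes and is not stated outright.

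Glycolysis splits glucose into pyruvate, and lactate dehydrogenase turns pyruvate into lactate. When oxygen is short, the HIF1A protein escapes hydroxylation by the EGLN enzymes, pairs with ARNT and binds short DNA elements with the core letters ACGTG or GCGTG beside genes of sugar uptake, glycolysis, angiogenesis, collagen modification and mitophagy. HIF1A is controlled mainly as a protein, so its mRNA is a poor measure of its activity, and many tumour cells run glycolysis at a high rate with oxygen present.

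The targeted genes checked the labels. EZH2 fell by 1.47 (SE 0.07) on the log2 scale with shEZH2 in HCC70 and fell by 1.67 (SE 0.07) in MDA-MB-468, EED fell by 0.82 (SE 0.11) with shEED, and the EZH2 cluster changed by 0.29 (SE 0.07, adjusted p = 0.0961) with the EZH2 cDNA, which did not pass the threshold. All 7 breast epithelial markers reached the floor on all 16 arrays, 4 of 5 fibroblast markers, PECAM1, CDH5, PTPRC and CD3E reached it on none, KDR reached it on 2, and COL1A1, CD14 and CD68 reached it on all. Array medians ran from 5.37 to 5.53, duplicates correlated at 0.994 to 0.997, and no comparison moved the median of all tested clusters by more than 0.034 log2.

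The promoters of 6 members are shown because BNIP3, P4HA1, ADM and PFKFB3 changed differently with EZH2 knockdown in the 2 lines, while LDHA and LDHB encode partner subunits of 1 enzyme with unlike behaviour. Each is the 250 bases before a start of the gene, 5′ to 3′ on the gene's strand, from RefSeq (GRCh38.p14). PFKFB3 and LDHA had 2 windows each, and for both genes the window shown is the 1 of 2 that held ACGTG. Capitals mark ACGTG and GCGTG on either strand (read as CACGT and CACGC on the other), with overlapping matches merged.
BNIP3: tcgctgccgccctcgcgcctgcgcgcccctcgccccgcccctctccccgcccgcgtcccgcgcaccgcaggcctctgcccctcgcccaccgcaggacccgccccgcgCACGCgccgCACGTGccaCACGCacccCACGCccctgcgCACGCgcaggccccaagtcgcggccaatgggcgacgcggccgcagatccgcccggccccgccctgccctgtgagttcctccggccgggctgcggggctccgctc
P4HA1: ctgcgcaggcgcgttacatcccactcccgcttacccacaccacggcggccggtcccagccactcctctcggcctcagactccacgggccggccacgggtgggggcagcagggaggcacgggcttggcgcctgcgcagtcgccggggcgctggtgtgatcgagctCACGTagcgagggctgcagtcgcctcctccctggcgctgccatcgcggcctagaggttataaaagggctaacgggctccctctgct
ADM: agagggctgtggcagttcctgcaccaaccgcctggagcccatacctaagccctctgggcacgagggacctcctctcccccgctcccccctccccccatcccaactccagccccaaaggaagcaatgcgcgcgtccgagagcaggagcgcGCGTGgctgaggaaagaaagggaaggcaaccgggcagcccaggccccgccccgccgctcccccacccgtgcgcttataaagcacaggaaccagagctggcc
PFKFB3: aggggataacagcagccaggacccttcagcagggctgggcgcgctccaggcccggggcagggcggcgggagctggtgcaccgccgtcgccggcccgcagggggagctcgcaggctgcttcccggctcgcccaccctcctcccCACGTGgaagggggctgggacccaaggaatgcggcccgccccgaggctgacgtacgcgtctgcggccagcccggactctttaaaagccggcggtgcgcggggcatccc
LDHA: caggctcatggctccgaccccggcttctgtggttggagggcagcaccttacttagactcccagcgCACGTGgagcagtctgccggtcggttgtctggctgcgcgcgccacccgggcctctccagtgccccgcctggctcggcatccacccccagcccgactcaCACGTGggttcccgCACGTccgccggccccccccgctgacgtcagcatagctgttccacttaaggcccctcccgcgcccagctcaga
LDHB: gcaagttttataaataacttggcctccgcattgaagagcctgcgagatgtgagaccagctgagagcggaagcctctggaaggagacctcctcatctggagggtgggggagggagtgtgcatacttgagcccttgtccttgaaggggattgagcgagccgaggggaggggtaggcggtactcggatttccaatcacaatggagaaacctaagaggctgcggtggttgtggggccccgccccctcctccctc
The windows lie at chr10:131981924-131982173 (minus strand) for BNIP3, chr10:73096867-73097116 (minus) for P4HA1, chr11:10304823-10305072 (plus) for ADM, chr10:6202682-6202931 (plus) for PFKFB3, chr11:18394313-18394562 (plus) for LDHA and chr12:21657843-21658092 (minus) for LDHB. BNIP3 held 5 matches, which began 143, 134, 125, 116 and 104 bases before the start. In the windows shown, LDHA held 3, at 185, 87 and 73 bases, and P4HA1, ADM and PFKFB3 held 1 each, at 86, 101 and 108 bases. The LDHB window held none of these letters.

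A match is only a description of the letters, and such short words are common. Of 35116 RefSeq windows of the same 250 bases, 18.5% held ACGTG, 32.2% held GCGTG and 43.2% held either. The 33 members with an entry had 61 windows, of which 37.7% held ACGTG, 31.1% held GCGTG and 59.0% held either. By gene, 27 of the 33 had a match in at least 1 window: 14 of 17 glycolytic enzymes, 4 of 5 genes of transport and control, 8 of 10 other hypoxia-induced genes, and HIF1A. A gene with several windows has several chances of a match, so these counts cannot be set beside the shares of windows. The share by gene over all RefSeq genes was not worked out. SLC2A3, VEGFA, BNIP3L and NDRG1 had no entry.

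The first question was how the members stood in the control cells of the 2 lines. In HCC70 cells with scrambled shRNA (the mean of sets a and b) against MDA-MB-468 cells with scrambled shRNA, most members differed in level. HCC70 had more TPI1, ENO2, PFKP, PFKFB3, NDRG1 and P4HA2 signal, and less LDHB, BNIP3, BNIP3L and EGLN3 signal. Of the 31 members, 13 were higher and 12 lower in HCC70 by limma at an adjusted p under 0.05, the threshold used throughout. Over all 16175 clusters tested, 69.2% passed in either direction, 32.1% higher and 37.1% lower. Among glycolytic enzymes 6 were higher and 5 lower of 15, with a median difference of 0.06. A lower signal may come from fewer cells with the transcript or from less of it per cell, which cannot be told apart in these bulk samples. All 11 other hypoxia-induced genes passed, 5 higher and 6 lower, with a median of -0.24. The median over all clusters was -0.02.

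Among the enzymes, LDHB differed most between the lines. LDHB encodes the B subunit of lactate dehydrogenase, which favours the use of lactate, and its log2 signal (cluster 7961693) was 8.25 and 8.20 in set a and 7.38 and 7.32 in set b of HCC70, against 9.85 and 9.79 in MDA-MB-468. Every HCC70 array was below both MDA-MB-468 arrays, a difference of -2.03 ± 0.09 (SE; 4 and 2 arrays), 4.09-fold lower (adjusted p = 1.48e-09). ENO2, the neuronal enolase, stood the other way, at 7.46 and 7.24 (set a) and 7.82 and 7.61 (set b) in HCC70, against 6.29 and 6.09 in MDA-MB-468 (1.34 ± 0.10, adjusted p = 3.12e-07). TPI1, triose phosphate isomerase, was at 12.21, 12.13, 12.06 and 12.06 on the 4 HCC70 control arrays, against 10.81 and 10.87 on the MDA-MB-468 arrays. Its difference of 1.27 ± 0.07 was close to that of its other cluster (1.21). PFKP, the platelet phosphofructokinase, measured 9.70, 9.67, 10.17 and 10.11 in HCC70, against 9.29 and 9.10 in MDA-MB-468 (0.72 ± 0.08). HK2, the inducible hexokinase, measured 8.41, 8.25, 8.43 and 8.35 in HCC70, against 9.09 and 9.01 in MDA-MB-468 (-0.69 ± 0.08). Neither gene's groups overlapped.

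Other enzymes lay closer together. PFKM, the muscle phosphofructokinase, differed by -0.58, ALDOA (aldolase A) by 0.44, ENO1 (enolase 1) by 0.39, PKM (pyruvate kinase) by 0.26, HK1 (hexokinase 1) by -0.26 and LDHA, the A subunit of lactate dehydrogenase, by -0.22, all past the threshold. GAPDH, PGK1 (phosphoglycerate kinase), PFKL (the liver phosphofructokinase) and GPI (glucose phosphate isomerase) did not pass it, with 95% intervals of -0.12 to 0.14, -0.08 to 0.19, -0.15 to 0.28 and -0.34 to -0.01. Lactate dehydrogenase thus showed unequal differences within 1 enzyme, with LDHA at -0.22 and LDHB at -2.03 log2.

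Genes of transport and control were split. PFKFB3, which makes the allosteric activator of phosphofructokinase, measured 9.26 and 9.21 (set a) and 10.17 and 10.12 (set b) in HCC70, against 8.35 and 8.35 in MDA-MB-468 (1.34 ± 0.07, adjusted p = 5.86e-09). PDK1, the kinase that shuts pyruvate out of the mitochondrial cycle, measured 7.70, 7.58, 7.75 and 7.77 in HCC70, against 8.41 and 8.40 in MDA-MB-468 (-0.71 ± 0.08, adjusted p = 6.03e-06). Both genes separated the lines completely, in opposite directions. SLC2A1, the glucose transporter GLUT1, measured 10.90, 10.81, 11.15 and 11.24 in HCC70, against 11.14 and 11.04 in MDA-MB-468. Its groups overlapped, and the difference of -0.06 had an interval of -0.22 to 0.09. PFKFB4, a relative of PFKFB3, lay at the floor, at 5.98, 5.90, 6.04 and 5.90 in HCC70, against 6.08 and 5.96 in MDA-MB-468.

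The other hypoxia-induced genes had a median absolute difference of 1.19 log2, beside 0.39 for glycolytic enzymes and 0.44 for all clusters. BNIP3, a mitophagy receptor, measured 6.58 and 6.49 (set a) and 6.76 and 6.74 (set b) in HCC70, against 8.60 and 8.77 in MDA-MB-468, which made it 4.12-fold lower in HCC70 (-2.04 ± 0.08, adjusted p = 4.11e-10). Its relative BNIP3L, also a mitophagy receptor, measured 7.83, 7.81, 8.61 and 8.55 in HCC70, against 9.62 and 9.67 in MDA-MB-468 (-1.44 ± 0.08, adjusted p = 2.34e-08). EGLN3, an oxygen-sensing prolyl hydroxylase, measured 8.25, 8.10, 7.49 and 7.52 in HCC70, against 9.26 and 9.24 in MDA-MB-468 (-1.41 ± 0.13). In these 3 genes every HCC70 control array was below both MDA-MB-468 control arrays.

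P4HA2 and NDRG1 stood the other way. P4HA2, a subunit of collagen prolyl hydroxylase, measured 9.44, 9.44, 9.35 and 9.35 in HCC70, against 8.01 and 7.81 in MDA-MB-468 (1.48 ± 0.07, adjusted p = 3.62e-09). NDRG1, a stress-induced differentiation gene, measured 9.40, 9.24, 9.61 and 9.63 in HCC70, against 8.12 and 8.12 in MDA-MB-468 (1.35 ± 0.12). P4HA1, another catalytic subunit of collagen prolyl hydroxylase (0.97), the angiogenic factor VEGFA (0.58) and the lipase inhibitor ANGPTL4 (1.19, with MDA-MB-468 below the floor) were also higher in HCC70. The peptide hormone gene ADM (-0.63), the histone demethylase gene KDM3A (-0.81) and the main oxygen sensor EGLN1 (-0.24) were lower. HIF1A itself measured 10.81, 10.78, 11.10 and 11.06 in HCC70, against 10.34 and 10.44 in MDA-MB-468, a difference of 0.55 ± 0.10 (adjusted p = 0.000363) with no overlap.

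Of these 25 calls, 22 kept their side of the threshold in every setting tried. HK1 was no longer past it without HCC70 set a replicate 2 (-0.22), MDA-MB-468 scrambled replicate 1 (-0.10) or HCC70 set b replicate 2 (-0.24). LDHA was lost without MDA-MB-468 scrambled replicate 1 (-0.23) or 2 (-0.21), and EGLN1 without MDA-MB-468 scrambled replicate 2 (-0.18). With set a alone as the HCC70 control, HK1 (-0.17) and LDHA (-0.11) did not pass, and SLC2A1 (-0.23) did. With set b alone, GPI (-0.22) passed. Renewed quantile normalization lost HK1 (-0.15) and EGLN1 (-0.14), and HK1 was also lost with only the arrays compared.

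**Figure D1:**
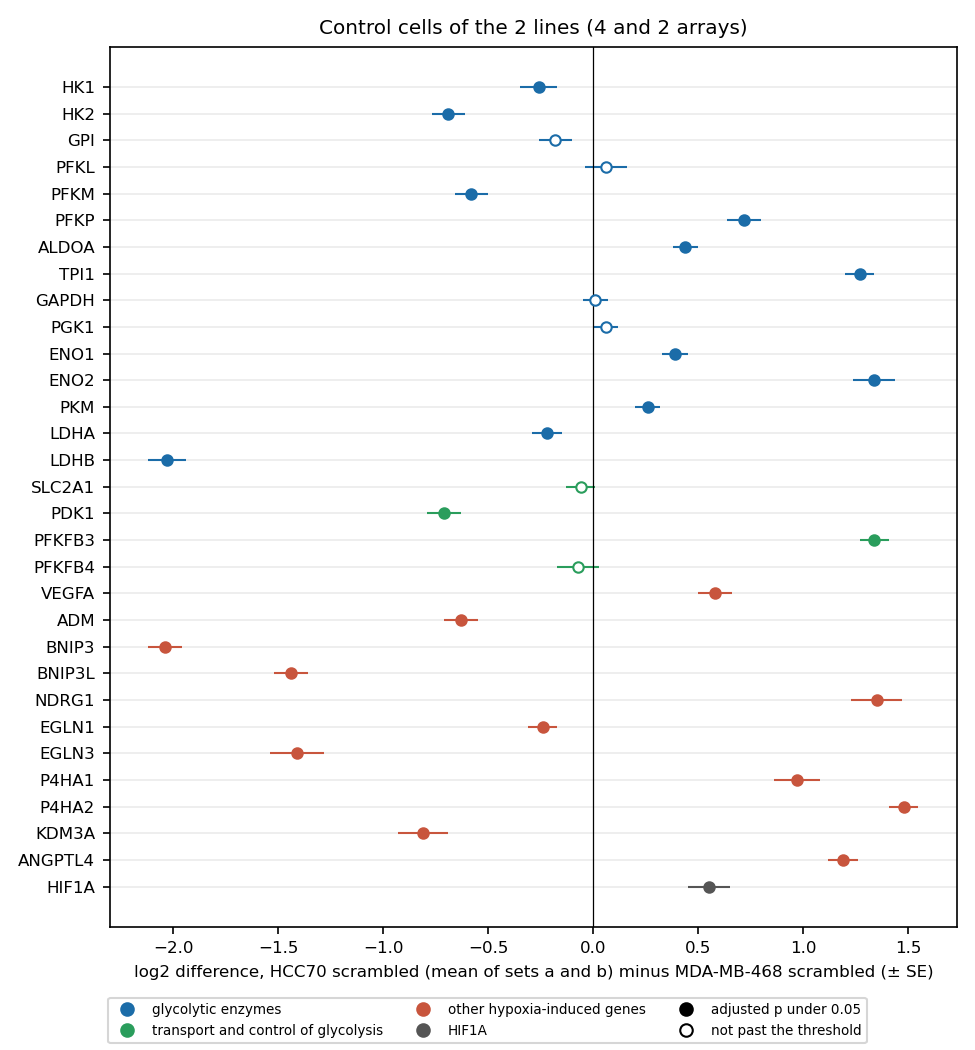
Log2 difference between HCC70 control cells (mean of scrambled sets a and b, 4 arrays) and MDA-MB-468 control cells (2 arrays) for the 31 members tested, coloured by role, with bars of 1 SE. Filled points passed an adjusted p under 0.05; all 11 other hypoxia-induced genes are filled, from BNIP3 at -2.04 to P4HA2 at 1.48.

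With EZH2 knockdown in HCC70, 6 of 31 members rose and 2 fell against scrambled set a. Of all clusters tested, 11.4% passed, 7.3% higher and 4.06% lower. The rises were in BNIP3, PFKFB3, ANGPTL4, PFKM, BNIP3L and ADM, and the falls in LDHB and HK2. Glycolytic enzymes as a group had a median change of -0.02, with 1 higher and 2 lower of 15. The other hypoxia-induced genes had a median of 0.25, with 4 higher and 0 lower of 11 (7 at an unadjusted p under 0.05 in either direction). The median of all clusters was 0.01.

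HK2 measured 7.91 and 7.77 in shEZH2 arrays, against 8.41 and 8.25 in set a (-0.49 ± 0.09, adjusted p = 0.00406). LDHB measured 7.72 and 7.71 in shEZH2 arrays, against 8.25 and 8.20 in set a (-0.51 ± 0.10, adjusted p = 0.00741). PFKM measured 7.70 and 7.72 in shEZH2 arrays, against 7.36 and 7.11 in set a (0.47 ± 0.09, adjusted p = 0.00609). None of the 3 overlapped between groups, but neither did some enzymes that did not pass, such as ALDOA (-0.07) and PGK1 (0.11). The other 12 enzymes changed by -0.35 (ENO2, adjusted p = 0.0848) to 0.11 (PGK1, adjusted p = 0.349). LDHA, for instance, had a change of -0.02 with a 95% interval of -0.20 to 0.16. Outside the members, the 5 clusters shared by PGAM1 and PGAM4 all rose, by 0.35 to 0.39 (adjusted p = 0.00382 to 0.0152). None of them passed with EZH2 knockdown in MDA-MB-468, EED knockdown or the EZH2 cDNA. Clusters 8173729 and 8176282 among them had the same change in every comparison, so the 5 are not separate measurements.

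PFKFB3 measured 9.99 and 9.98 in shEZH2 arrays, against 9.26 and 9.21 in set a, a rise of 0.75 ± 0.08, 1.68-fold (adjusted p = 9.25e-05). SLC2A1 (-0.07), PDK1 (0.02) and PFKFB4 (0.07) did not pass the threshold. Among the hypoxia-induced genes, BNIP3 stood out in size, at 7.68 and 7.72 in shEZH2 arrays, against 6.58 and 6.49 in set a. It rose by 1.17 ± 0.09, 2.24-fold (adjusted p = 7.04e-06), and both shEZH2 arrays were far above both control arrays.

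BNIP3L measured 8.41 and 8.11 in shEZH2 arrays, against 7.83 and 7.81 in set a (0.44 ± 0.10, adjusted p = 0.0139). ADM measured 7.58 and 7.90 in shEZH2 arrays, against 7.43 and 7.39 in set a (0.32 ± 0.10, adjusted p = 0.0498). Their shEZH2 duplicates lay far apart, although neither gene overlapped between groups. ANGPTL4 measured 6.52 and 6.43 in shEZH2 arrays, against 6.02 and 5.95 in set a (0.50 ± 0.08, adjusted p = 0.00322), and since the set a mean of 5.98 is below the floor its rise may be understated. The other 7 had changes of -0.36 (EGLN3) to 0.27 (KDM3A), and HIF1A changed by 0.17 (interval -0.08 to 0.41). Against set a, 10 of the 11 had a change above 0, with EGLN3 the exception, beside 8337 of 16175 clusters. Against set b EGLN3 was above 0 (0.31), and BNIP3L (-0.32) and NDRG1 (-0.12) were below it.

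BNIP3 alone of these 8 calls passed in every setting tried, with changes of 0.95 to 1.21. No setting took the empty vector as the control of shEZH2. On the HCC70 empty vector arrays BNIP3 measured 7.38 and 7.53, closer to the shEZH2 arrays (7.68 and 7.72) than to either scrambled set. Without set a replicate 1, HK2 (-0.41), LDHB (-0.48), ADM (0.34) and BNIP3L (0.45) were no longer past the threshold. The same held for PFKM (0.35), ADM (0.30) and BNIP3L (0.43) without set a replicate 2, for BNIP3L (0.29) without shEZH2 replicate 1, and for ADM (0.17) without shEZH2 replicate 2, while HIF1A (0.37) passed it without shEZH2 replicate 2.

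**Figure D2:**
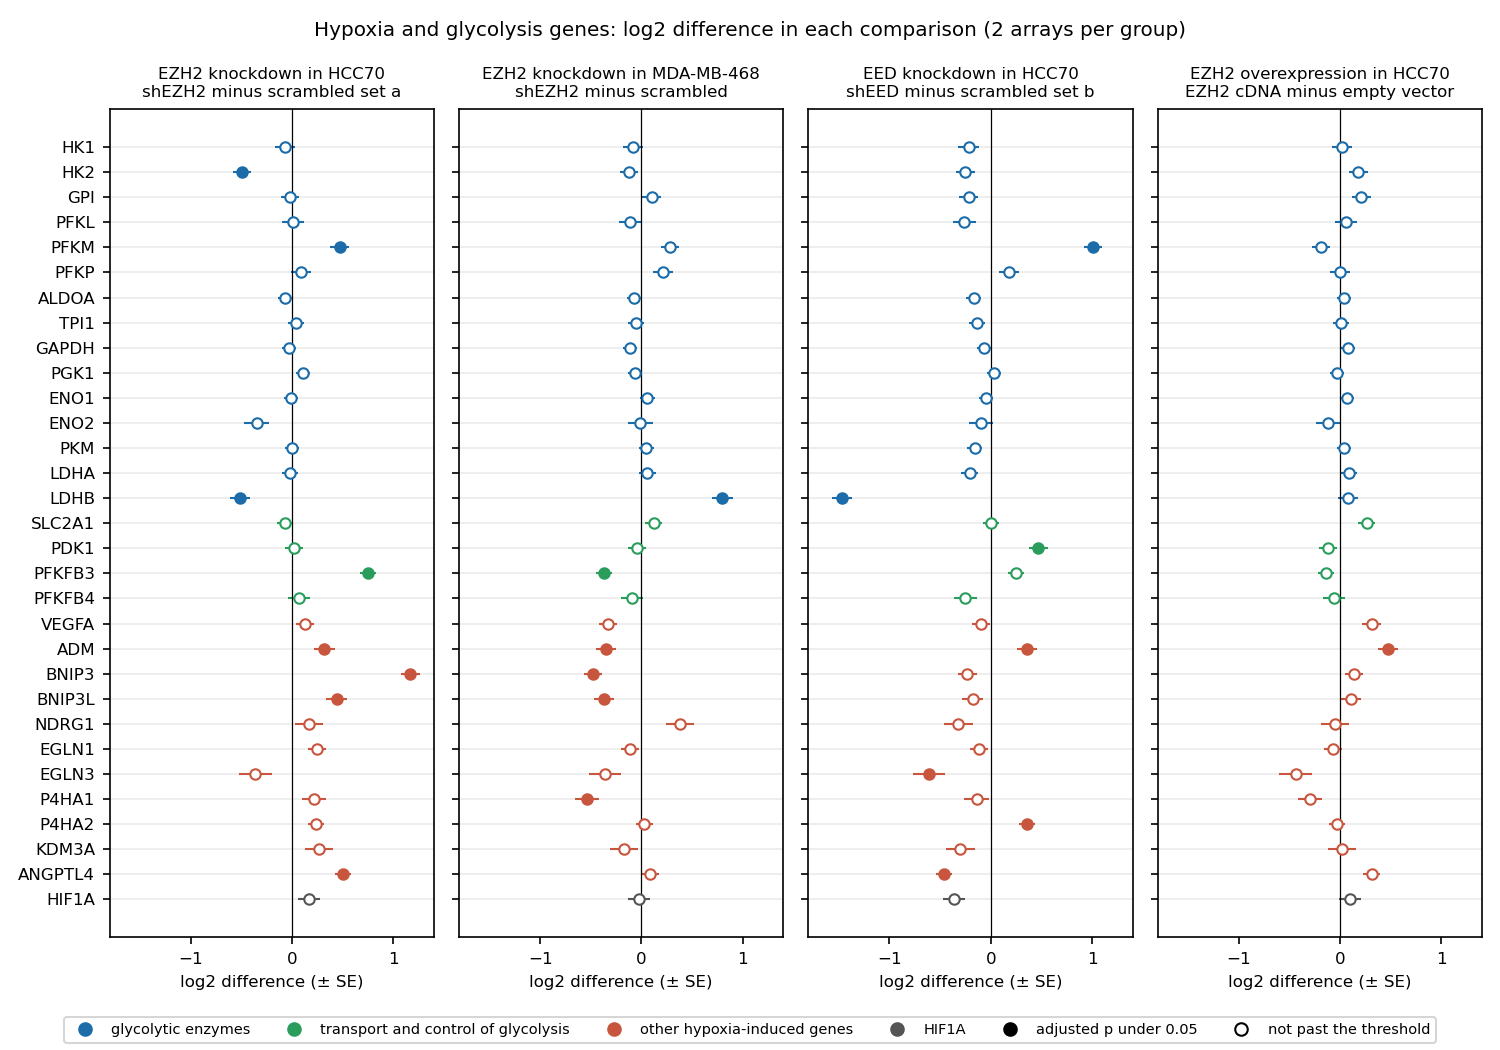
Log2 difference (treated minus control, with bars of 1 SE) of the 31 members tested in each of the 4 treatment comparisons, coloured by role; filled points passed an adjusted p under 0.05. Most glycolytic enzymes lie near 0 in all 4 panels, while BNIP3 reaches 1.17 with EZH2 knockdown in HCC70, LDHB -1.47 and PFKM 1.01 with EED knockdown.

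EZH2 knockdown in MDA-MB-468 gave another picture: LDHB rose, and BNIP3, BNIP3L, ADM, P4HA1 and PFKFB3 fell. Of 31 members 1 was higher and 5 lower, against 8.3% of all clusters in either direction (2.73% higher and 5.57% lower). Glycolytic enzymes had a median of -0.01, with 1 higher and 0 lower of 15 (2 at an unadjusted p under 0.05). The other hypoxia-induced genes had a median of -0.33, with 0 higher and 4 lower of 11 (7 at an unadjusted p under 0.05). The median of all clusters was -0.02.

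LDHB measured 10.67 and 10.58 in shEZH2 arrays, against 9.85 and 9.79 in scrambled arrays, a rise of 0.80 ± 0.10, 1.75-fold (adjusted p = 0.0011). The other 14 enzymes changed by -0.12 (HK2) to 0.28 (PFKM, adjusted p = 0.0766). PFKFB3 measured 8.04 and 7.91 in shEZH2 arrays, against 8.35 and 8.35 in scrambled arrays (-0.37 ± 0.08, adjusted p = 0.016). Both genes separated the groups.

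BNIP3 measured 8.27 and 8.15 in shEZH2 arrays, against 8.60 and 8.77 in scrambled arrays (-0.48 ± 0.09, adjusted p = 0.00888). P4HA1 measured 6.99 and 7.25 in shEZH2 arrays, against 7.50 and 7.82 in scrambled arrays (-0.54 ± 0.12, adjusted p = 0.0243). Neither gene's groups overlapped. BNIP3L measured 9.19 and 9.36 in shEZH2 arrays, against 9.62 and 9.67 in scrambled arrays (-0.37 ± 0.10, adjusted p = 0.0407). ADM measured 7.84 and 7.78 in shEZH2 arrays, against 8.17 and 8.14 in scrambled arrays (-0.35 ± 0.10, adjusted p = 0.0477). VEGFA, the main angiogenic growth factor, measured 7.68 and 7.78 in shEZH2 arrays, against 8.12 and 7.99 in scrambled arrays. Its groups did not overlap, yet its change of -0.33 ± 0.09 did not pass the threshold (adjusted p = 0.0544). NDRG1, at 8.77 and 8.23 in shEZH2 arrays and 8.12 and 8.12 in scrambled arrays, changed by 0.38 (adjusted p = 0.105), with its shEZH2 duplicates far apart. HIF1A changed by -0.02 (interval -0.27 to 0.23).

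All 6 calls were lost when only these 4 arrays entered the fit, with adjusted p of 0.0882 for LDHB and 0.171 to 0.217 for the others. Without scrambled replicate 2, PFKFB3 (-0.38), ADM (-0.36), BNIP3 (-0.39), BNIP3L (-0.35) and P4HA1 (-0.38) did not pass the threshold. PFKFB3 (-0.31) was lost without shEZH2 replicate 2, P4HA1 (-0.41) without shEZH2 replicate 1, BNIP3L without scrambled replicate 1 (-0.39) or shEZH2 replicate 1 (-0.28), and ADM without any 1 of the 4 arrays (-0.37 to -0.32), while NDRG1 (0.65) passed it without shEZH2 replicate 2.

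**Figure D3:**
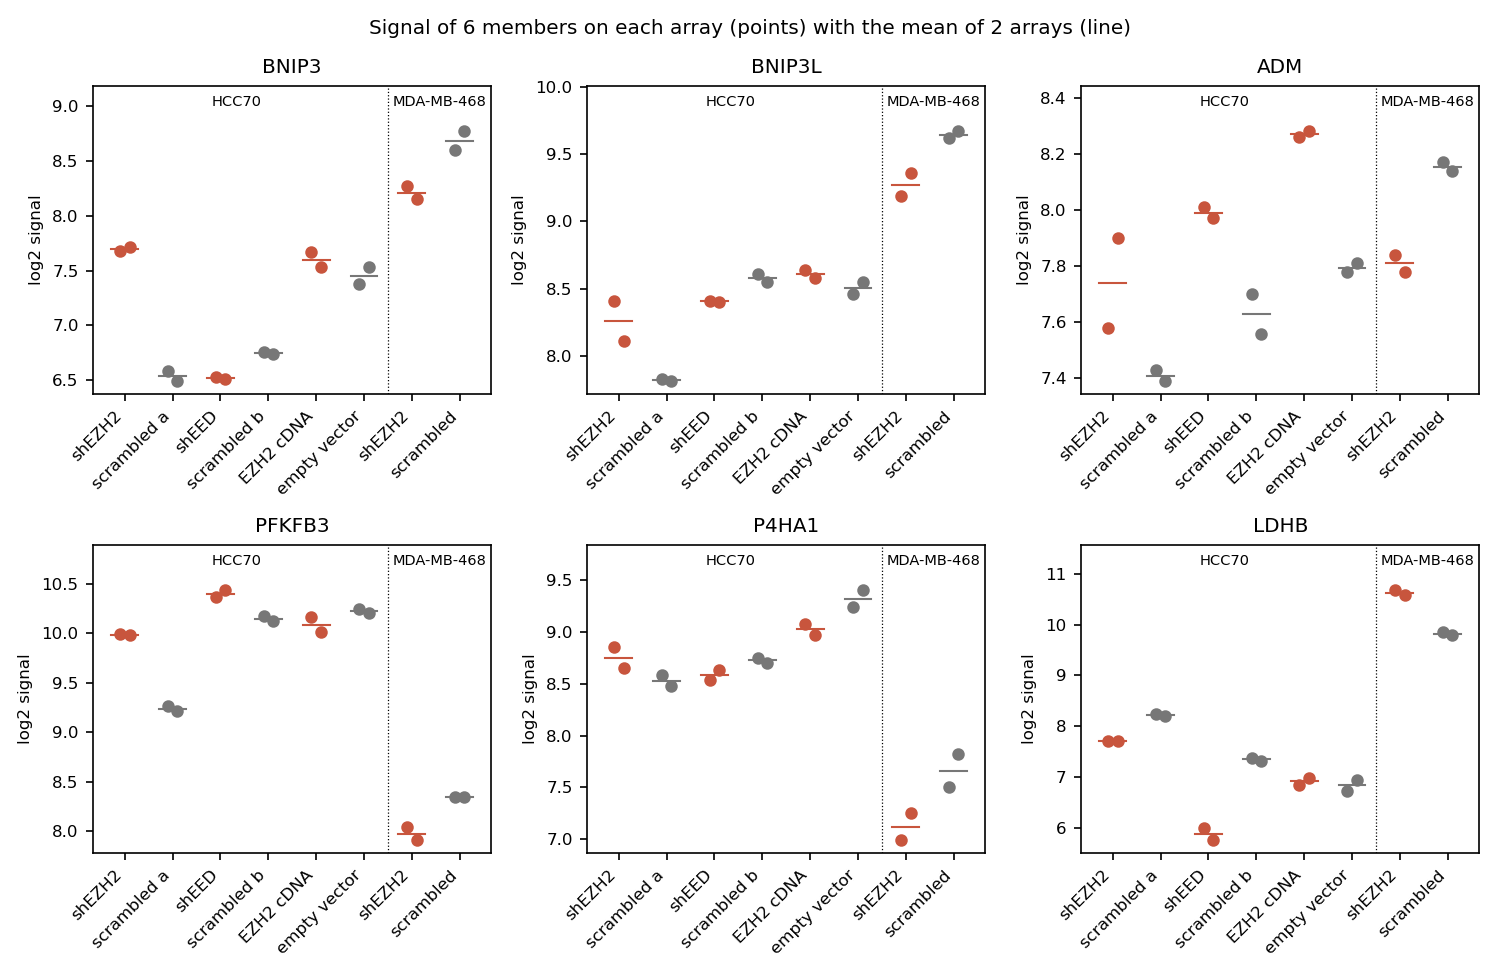
Log2 signal of BNIP3, BNIP3L, ADM, PFKFB3, P4HA1 and LDHB on each of the 16 arrays (points) with the mean of each group (lines), treated groups in red left of their controls in grey, HCC70 left of the dotted line and MDA-MB-468 right of it. BNIP3 runs from 6.49 in HCC70 scrambled set a to 8.77 in MDA-MB-468 scrambled cells, and LDHB is lowest with shEED (5.76 and 6.00).

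Whether EZH2 knockdown changed a member differently in the 2 lines was tested as 1 contrast, the change in HCC70 minus the change in MDA-MB-468. It passed for 8 of 31 members, 7 above and 1 below 0, against 13.2% of all clusters (8.97% above and 4.27% below). Of the other hypoxia-induced genes 6 of 11 passed, all above 0, with a median of 0.44. A further list of 24 genes known to be hypoxia-induced, described below, went both ways. There 4 passed above 0 and 4 below it, with a median of 0. Of the glycolytic enzymes 1 of 15 passed, with a median of -0.06. The median of all clusters was 0.03. This contrast uses the same control arrays as the comparison of the control cells above, so the values of both are given side by side and not related to each other.

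BNIP3 had the largest of the 8, with 1.17 in HCC70 and -0.48 in MDA-MB-468, a difference of 1.64 ± 0.12 (adjusted p = 2.05e-05). LDHB went the opposite way, with -0.51 in HCC70 and 0.80 in MDA-MB-468, a difference of -1.31 ± 0.14 (adjusted p = 0.000228). PFKFB3 changed by 0.75 and -0.37, a difference of 1.12 ± 0.11 (adjusted p = 0.000117). These 3 genes, a mitophagy receptor, a lactate dehydrogenase subunit and a glycolytic activator enzyme, were past the threshold in both lines with opposite signs when set a was the HCC70 control. BNIP3L (0.81 ± 0.14, adjusted p = 0.00416) and ADM (0.67 ± 0.14, adjusted p = 0.00966) also did so. P4HA1 differed by 0.76 ± 0.17 (adjusted p = 0.0172) and VEGFA by 0.46 ± 0.13 (adjusted p = 0.0441). VEGFA measured 8.86 and 8.65 in HCC70 shEZH2 arrays, against 8.63 and 8.62 in set a, and P4HA1 measured 8.85 and 8.65, against 8.58 and 8.48, so that neither passed in HCC70. ANGPTL4 differed by 0.41 ± 0.12 (adjusted p = 0.0443), but in MDA-MB-468 it measured 5.01 and 5.13 in shEZH2 arrays and 4.93 and 5.03 in scrambled arrays, below the floor. The core enzymes GAPDH, PGK1, ENO1, PKM and LDHA had differences of -0.08 to 0.17, none past the threshold, while the 5 clusters shared by PGAM1 and PGAM4 had differences of 0.37 to 0.50 that passed (adjusted p = 0.00838 to 0.0485).

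The choice of the HCC70 control mattered here. Of BNIP3, LDHB, PFKFB3, BNIP3L and ADM, BNIP3 alone kept opposite signs past the threshold in both lines against set b (0.95 in HCC70). LDHB (0.36) and BNIP3L (-0.32) then passed in HCC70 with the same sign as in MDA-MB-468, and PFKFB3 (-0.16) and ADM (0.11) did not pass there. For the differences between the lines, against set b in place of set a, the differences of BNIP3, ADM, P4HA1 and VEGFA still passed, while LDHB (-0.44, adjusted p = 0.0532), PFKFB3 (0.21, adjusted p = 0.214), BNIP3L (0.05, adjusted p = 0.851) and ANGPTL4 (0.04, adjusted p = 0.872) did not, and HK2 (-0.43), PFKP (-0.56), ENO2 (-0.71), SLC2A1 (-0.52) and EGLN1 (0.39) passed against set b and not against set a. VEGFA (0.35 to 0.52) lost the call without any 1 of the 8 arrays but HCC70 shEZH2 replicate 2, P4HA1 without set a replicate 2 (0.70), MDA-MB-468 scrambled replicate 2 (0.60) or MDA-MB-468 shEZH2 replicate 1 (0.63), and ANGPTL4 without set a replicate 1 (0.44) or 2 (0.37), HCC70 shEZH2 replicate 1 (0.36), MDA-MB-468 scrambled replicate 2 (0.36) or MDA-MB-468 shEZH2 replicate 1 (0.35); without MDA-MB-468 shEZH2 replicate 2 the differences of NDRG1 (-0.48) and EGLN1 (0.46) passed.

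**Figure D4:**
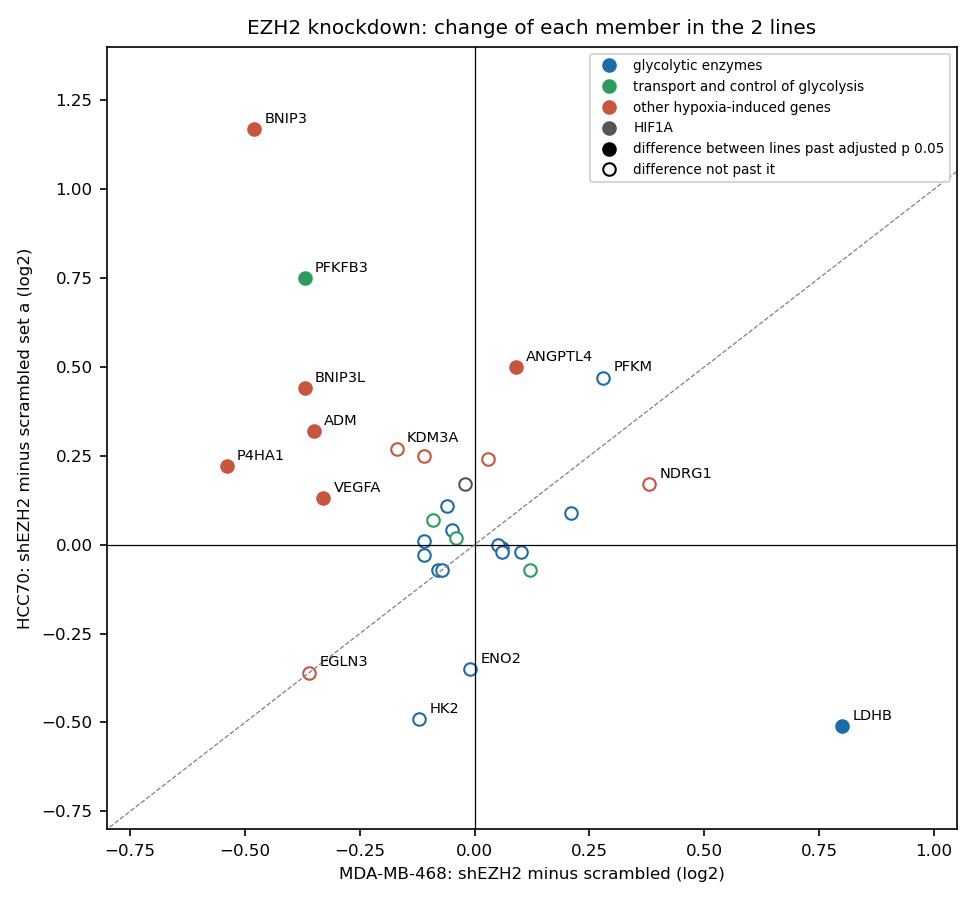
Change with EZH2 knockdown in HCC70 (vertical axis, log2, against set a) and in MDA-MB-468 (horizontal axis, log2) for the 31 members, coloured by role; the dashed line marks equal change. Filled points, for which the difference between the lines passed an adjusted p under 0.05, include BNIP3 (1.17 and -0.48) at upper left and LDHB (-0.51 and 0.80) at lower right.

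EED knockdown in HCC70 targets another subunit of the same complex. LDHB fell by 1.47 log2 and PFKM rose by 1.01 against set b, PDK1, P4HA2 and ADM rose, EGLN3 and ANGPTL4 fell, and BNIP3 did not pass the threshold. Of these, LDHB, PFKM and ADM had passed in the same direction with shEZH2 against set a, and ANGPTL4 in the opposite one. Of 31 members 4 were higher and 3 lower, against 14.2% of all clusters (6.63% higher and 7.53% lower). Glycolytic enzymes had a median of -0.16, with 12 of 15 below 0, beside 7279 of 16175 clusters. Only LDHB was lower and PFKM higher past the threshold. The other hypoxia-induced genes had a median of -0.18, with 2 higher and 2 lower of 11. The median of all clusters was 0.02.

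LDHB measured 6.00 and 5.76 in shEED arrays, against 7.38 and 7.32 in set b, 2.77-fold lower (-1.47 ± 0.10, adjusted p = 2.65e-06). The shEED mean of 5.88 lies under the floor, which may understate this fall. PFKM measured 8.49 and 8.40 in shEED arrays, against 7.46 and 7.42 in set b, 2.01-fold higher (1.01 ± 0.09, adjusted p = 2.23e-05). Both genes passed in every setting tried. LDHA (-0.21, adjusted p = 0.121), PKM (-0.16), GPI (-0.22) and PFKL (-0.26) had changes below 0 that did not pass.

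PDK1 measured 8.19 and 8.27 in shEED arrays, against 7.75 and 7.77 in set b (0.47 ± 0.09, adjusted p = 0.00455). PFKFB3 measured 10.36 and 10.43 in shEED arrays, against 10.17 and 10.12 in set b (0.25 ± 0.08, adjusted p = 0.0535), short of the threshold. Groups overlapped in neither. SLC2A1 measured 11.26 and 11.12 in shEED arrays, against 11.15 and 11.24 in set b, and its change of 0.00 had an interval of -0.18 to 0.18. On the HCC70 empty vector arrays, not tested as a control of shEED, PDK1 measured 8.13 and 8.32, level with the shEED arrays.

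P4HA2 measured 9.74 and 9.67 in shEED arrays, against 9.35 and 9.35 in set b (0.36 ± 0.08, adjusted p = 0.0121). ADM measured 8.01 and 7.97 in shEED arrays, against 7.70 and 7.56 in set b (0.36 ± 0.10, adjusted p = 0.0274). Both rose without overlap, and EGLN3 and ANGPTL4 fell. EGLN3 measured 6.77 and 7.01 in shEED arrays, against 7.49 and 7.52 in set b (-0.61 ± 0.16, adjusted p = 0.0214). ANGPTL4 measured 5.88 and 5.91 in shEED arrays, against 6.31 and 6.39 in set b (-0.46 ± 0.08, adjusted p = 0.00366), with the shEED mean below the floor. BNIP3, at 6.53 and 6.51 in shEED arrays and 6.76 and 6.74 in set b, changed by -0.23 (adjusted p = 0.103). HIF1A, at 10.70 and 10.74 in shEED arrays and 11.10 and 11.06 in set b, changed by -0.36 (adjusted p = 0.0587).

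Without set b replicate 1, ADM (0.43), EGLN3 (-0.63) and P4HA2 (0.36) were no longer past the threshold, nor were they without set b replicate 2 (0.29, -0.60 and 0.36) or shEED replicate 1 (0.34, -0.49 and 0.32). Without shEED replicate 2 the same held for PDK1 (0.43), ADM (0.38) and P4HA2 (0.39).

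EZH2 overexpression in HCC70 moved 1 member, ADM, past the threshold, against 0.977% of all clusters (0.909% higher and 0.068% lower). ADM measured 8.26 and 8.28 in EZH2 cDNA arrays, against 7.78 and 7.81 in empty vector arrays, 1.39-fold higher (0.47 ± 0.10, adjusted p = 0.0431). The groups did not overlap, but the call was lost without any 1 of the 4 arrays (changes of 0.46 and 0.48 without empty vector replicates 1 and 2, 0.48 and 0.47 without EZH2 cDNA replicates 1 and 2). Glycolytic enzymes had 0 higher and 0 lower of 15 by limma (1 at an unadjusted p under 0.05), with a median of 0.04 and a range of -0.19 (PFKM) to 0.21 (GPI). The other hypoxia-induced genes had a median of 0.02, and all clusters 0.02.

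BNIP3 and LDHB stayed short of the threshold here. BNIP3 measured 7.67 and 7.53 in EZH2 cDNA arrays, against 7.38 and 7.53 in empty vector arrays (0.14, interval -0.05 to 0.33). LDHB measured 6.85 and 6.99 in EZH2 cDNA arrays, against 6.73 and 6.95 in empty vector arrays (0.08, interval -0.14 to 0.30). The BNIP3 groups met at 7.53, and the LDHB groups overlapped. At an unadjusted p under 0.05 by limma stood 7 of 31 members, ADM among them, beside 1675 of 16175 clusters. Of these 7 members, 5 were other hypoxia-induced genes, of which 11 were tested. VEGFA, at 8.77 and 8.66 in EZH2 cDNA arrays and 8.33 and 8.47 in empty vector arrays, changed by 0.31 (adjusted p = 0.207). SLC2A1, at 11.32 and 11.26 in EZH2 cDNA arrays and 11.04 and 11.04 in empty vector arrays, changed by 0.26 (adjusted p = 0.23). EGLN3, at 7.26 and 7.15 in EZH2 cDNA arrays and 7.40 and 7.89 in empty vector arrays, changed by -0.44 (adjusted p = 0.309). ADM had changes above 0 in all 3 HCC70 treatments (0.32 with shEZH2, 0.36 with shEED and 0.47 with EZH2 cDNA) with set a taken as the control of shEZH2 and set b as that of shEED. Against set b its change with shEZH2 was 0.11 (adjusted p = 0.429).

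The 2 scrambled sets of HCC70, which carry the same label, differed in several of these genes. Set a minus set b passed for 8 of 31 members, 2 higher and 6 lower in set a, against 22.7% of all clusters (7.41% higher and 15.3% lower). PFKFB3, at 9.26 and 9.21 in set a and 10.17 and 10.12 in set b, differed by -0.91 ± 0.08 (adjusted p = 1.39e-05). LDHB differed by 0.87 ± 0.10, BNIP3L by -0.76 ± 0.10 and EGLN3 by 0.67 ± 0.16. PFKP (-0.45), ANGPTL4 (-0.37), ENO2 (-0.36) and SLC2A1 (-0.34) were the others. BNIP3 differed by -0.22 (adjusted p = 0.0959) and HK2 by -0.06 (adjusted p = 0.675). On leaving out single arrays, PFKP (-0.42) did not pass without set b replicate 1, SLC2A1 (-0.29) without set a replicate 2 or set b replicate 2, ANGPTL4 without set a replicate 2 (-0.34) or set b replicate 2 (-0.33), EGLN3 without set a replicate 1 (0.60), set b replicate 1 (0.66) or set b replicate 2 (0.68), and ENO2 without any 1 of the 4 (-0.47 to -0.26), while PFKM (-0.33) passed without set a replicate 1.

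The changes given above therefore depended on the set for some members and not for others. Against set b, shEZH2 arrays still had more BNIP3 (0.95 ± 0.09, adjusted p = 1.63e-05), more PFKM (0.27, adjusted p = 0.0466) and less HK2 (-0.55, adjusted p = 0.000826). The empty vector arrays, not tested as a control of shEZH2, had PFKM at 7.79 and 7.78, above the shEZH2 arrays (7.70 and 7.72). Their HK2 signal (8.05 and 8.19) lay between the shEZH2 arrays (7.91 and 7.77) and both scrambled sets. Against set b, other members moved. LDHB (0.36, adjusted p = 0.0202) and BNIP3L (-0.32, adjusted p = 0.0306) passed with the sign turned, and PFKFB3 had a change of -0.16 (adjusted p = 0.147). ADM (0.11) and ANGPTL4 (0.12) did not pass. PFKP (-0.36), ENO2 (-0.72), SLC2A1 (-0.41), EGLN1 (0.28), P4HA2 (0.33) and KDM3A (0.44) passed against set b but not against set a. In all, 6 members were higher and 5 lower against set b, beside 26.7% of all clusters.

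For shEED against set a, LDHB at -2.34, PFKM at 1.21, EGLN3 at -1.28, PDK1 at 0.59, ADM at 0.57 and P4HA2 at 0.27 again passed. PFKFB3 (1.16), PFKP (0.63), BNIP3L (0.58) and SLC2A1 (0.34) passed in this setting and not against set b, as did LDHA (-0.42), HK1 (-0.39), GPI (-0.30), PKM (-0.27), TPI1 (-0.25) and KDM3A (-0.48) on the lower side, and ANGPTL4 (-0.09) did not pass. Here 8 members were higher and 8 lower, beside 36.7% of all clusters. Which set was handled together with which knockdown is not stated in the sources used here, and a change that turns with the set cannot be told apart from the difference between the sets.

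TPI1, ENO2, PFKP and NDRG1 kept the lines apart in the treated cells too. So did other members that had separated the control cells, among them LDHB, BNIP3, PFKFB3 and P4HA2. The share of all clusters that keep the lines apart in this way was not worked out. Exceptions included ADM, PFKM, PKM and EGLN1, which overlapped between the lines once all 16 arrays were taken. TPI1 measured 12.26 and 12.17 in HCC70 with shEZH2, 11.93 and 11.91 with shEED, 12.11 and 12 with EZH2 cDNA and 12.10 and 11.99 with empty vector, and 10.83 and 10.75 in MDA-MB-468 with shEZH2. ENO2 measured 7.04 and 6.96 in HCC70 with shEZH2, 7.59 and 7.64 with shEED, 7.83 and 7.66 with EZH2 cDNA and 7.72 and 8.01 with empty vector, and 6.21 and 6.16 in MDA-MB-468 with shEZH2. Every HCC70 array was above every MDA-MB-468 array in both. PFKP measured 9.90 and 9.66 in HCC70 with shEZH2, 10.38 and 10.25 with shEED, 10.32 and 10.28 with EZH2 cDNA and 10.32 and 10.28 with empty vector, and 9.43 and 9.36 in MDA-MB-468 with shEZH2. NDRG1 measured 9.57 and 9.42 in HCC70 with shEZH2, 9.29 and 9.30 with shEED, 10.24 and 10.15 with EZH2 cDNA and 10.21 and 10.28 with empty vector. These 2 genes were also higher on all HCC70 arrays than on all MDA-MB-468 arrays. PFKFB4 stayed between 5.66 and 6.15 on all 16 arrays.

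**Figure D5:**
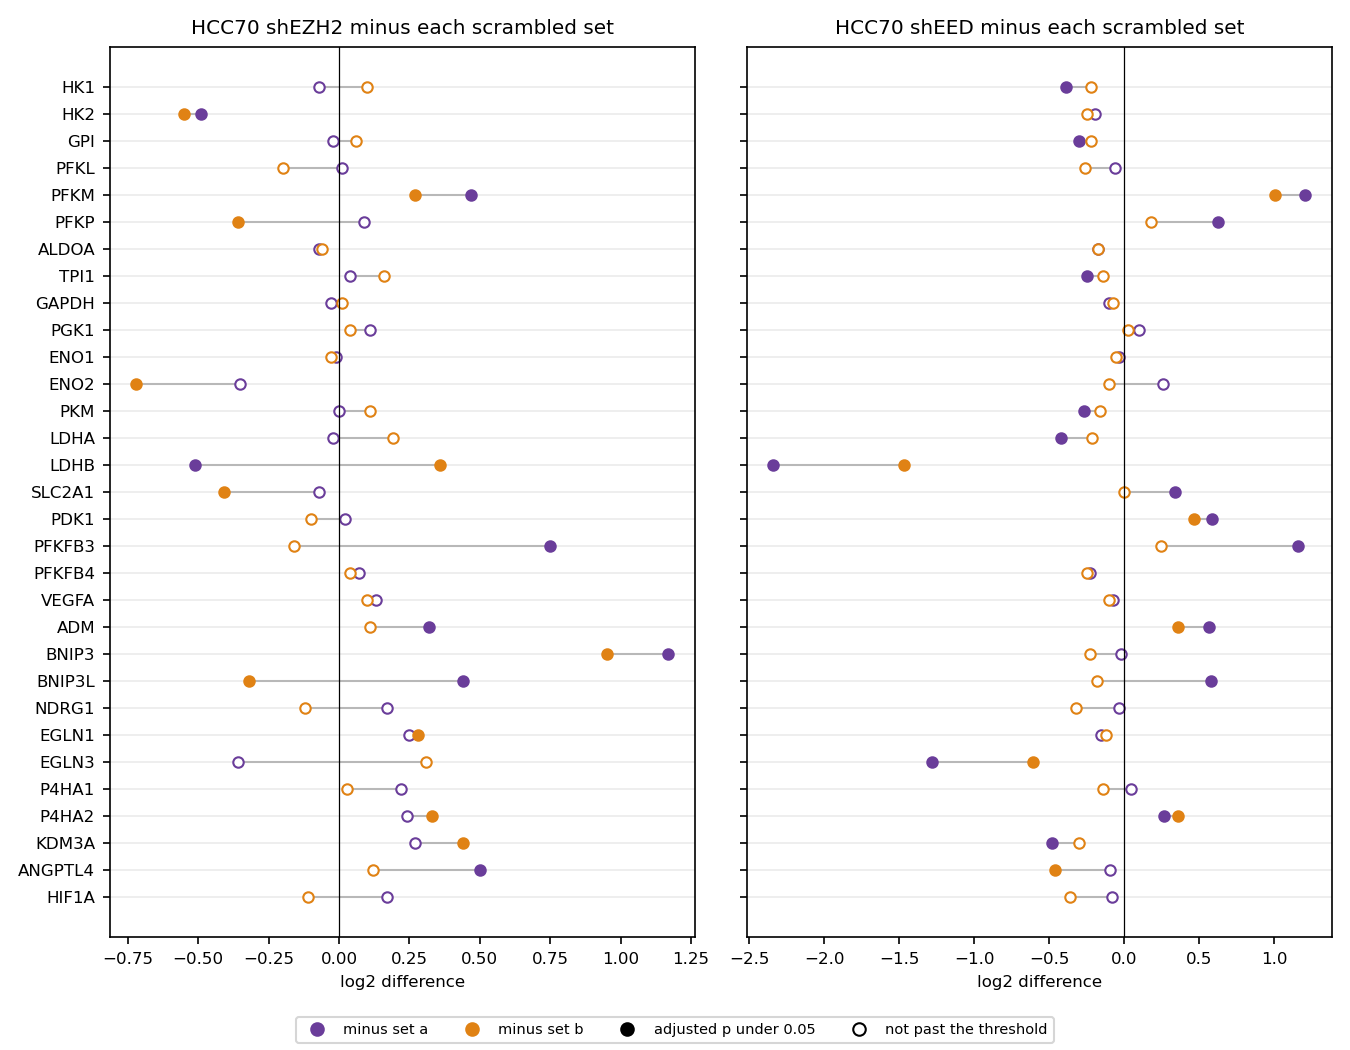
Log2 difference of HCC70 shEZH2 arrays (left) and shEED arrays (right) against scrambled set a (purple) and set b (orange) for the 31 members; filled points passed an adjusted p under 0.05 and a grey line joins the 2 values of a gene. For shEZH2, BNIP3 stays above 0 with both sets (1.17 and 0.95) and LDHB changes sign (-0.51 and 0.36).

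Neighbouring pathways were described with 5 further lists. Of 10 genes of oxygen sensing and of HIF subunits tested, 0 passed by limma with EZH2 knockdown in HCC70 or MDA-MB-468 or with EED knockdown. Of all clusters, 11.4%, 8.3% and 14.2% passed, so a count of 0 among 10 genes says little. At an unadjusted p under 0.05 stood 1, 4 and 2 of the 10, beside 4229, 4179 and 4429 of 16175 clusters. CITED2, a competitor of HIF for its coactivator, rose by 0.50 ± 0.09 with the EZH2 cDNA (adjusted p = 0.0312). In control cells EPAS1, which encodes the HIF2A protein, was higher in HCC70 than in MDA-MB-468 by 0.45 ± 0.09, and CITED2 was lower by a log2 difference of -1.24 ± 0.08.

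A further 24 genes known to be hypoxia-induced had 2 higher and 6 lower with EZH2 knockdown in HCC70 (median -0.04), 1 higher and 2 lower in MDA-MB-468 (median -0.03), and 6 higher and 6 lower with EED knockdown (median -0.04), where 11.4%, 8.3% and 14.2% of all clusters passed in either direction. In HCC70 with shEZH2, INSIG2, a brake on sterol synthesis (-0.64 ± 0.09), the carbonic anhydrase gene CA12 (-0.52 ± 0.11, with a group mean of 5.86, below the floor) and PFKFB2, a relative of PFKFB3 (-0.52 ± 0.09), fell. In MDA-MB-468, the Rag GTPase gene RRAGD rose by 0.84 ± 0.16, and PPP1R3C, a glycogen-targeting phosphatase subunit (-0.83 ± 0.16), and the collagen cross-linking enzyme LOXL2 (-0.68 ± 0.11) fell. With shEED, PPP1R3C (1.46 ± 0.16), the glycoprotein hormone STC2 (1.44 ± 0.10) and the mTOR inhibitor DDIT4 (0.98 ± 0.17) rose, while DDIT4 also differed between scrambled sets a and b by 1.71 ± 0.17.

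Of 10 other glycolysis and glycogen enzymes, 1 was higher and 1 lower with EZH2 knockdown in HCC70, 0 passed in MDA-MB-468 by limma (4 at an unadjusted p under 0.05) and 2 were lower with EED knockdown, beside 11.4%, 8.3% and 14.2% of all clusters. The liver glycogen phosphorylase PYGL rose by 0.62 ± 0.10 with shEZH2 in HCC70. FBP1, the gluconeogenic enzyme that opposes phosphofructokinase, fell by 0.90 (SE 0.09) with shEED against set b and was 3.45 ± 0.08 higher in HCC70 than in MDA-MB-468 control cells. Set a was itself lower than set b in FBP1 (-0.42 ± 0.09, adjusted p = 0.00831 by limma). Of 24 genes of pyruvate use and the tricarboxylic acid cycle, 1 was higher and 5 lower with EZH2 knockdown in HCC70, 0 higher and 1 lower in MDA-MB-468, and 2 higher and 5 lower with EED knockdown, beside the same 11.4%, 8.3% and 14.2% of all clusters. PDK2, a relative of PDK1, rose by 0.87 ± 0.13 in HCC70 with shEZH2 (lowest group mean 5.89), and OGDH, a cycle dehydrogenase, fell by 0.55 (SE 0.07) with shEED.

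In the pentose phosphate pathway, which branches from glycolysis, PGD fell in all 3 knockdowns, with -0.35 ± 0.07 for shEZH2 in HCC70 (adjusted p = 0.0107), -0.31 ± 0.07 for shEZH2 in MDA-MB-468 (adjusted p = 0.0263) and -0.31 ± 0.07 for shEED (adjusted p = 0.0133). PGD makes ribulose phosphate and NADPH. Of the 6 genes tested there, 2, 2 and 1 were lower and 0 were higher in these comparisons (4, 5 and 3 at an unadjusted p under 0.05), beside 4.06%, 5.57% and 7.53% of all clusters lower.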

How the data were processed

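RNA of 16 cell samples was hybridised to Affymetrix Human Gene 1.0 ST arrays, 1 sample an array, after biotin labelling. The authors deposited 1 log2 signal for each transcript cluster and array, made with RMA in Affymetrix Expression Console, per the submitters' processing notes. RMA corrects background, normalizes between arrays and summarises probes, and it tends to understate changes of dim clusters. Software versions and the build behind the clusters were not given in the sources used here. No scan date was used. Precision is limited by how many arrays there are.

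Sample titles gave the groups. Gene symbols came from the platform annotation (19460 clusters with exactly 1 symbol, of which 19429 were found in RefSeq GRCh38.p14, with 0 symbols updated). Of 33297 clusters, 16175 reached log2 6 on at least 2 arrays and were tested. All 16 arrays entered 1 linear model of 8 group means with limma 3.58.1 in R 4.3.3 (lmFit, eBayes; 8 residual and 3.69 prior degrees of freedom). Tests are two-sided, the Benjamini-Hochberg adjustment ran over all 16175 clusters within each of 7 comparisons, and ± values are standard errors from this fit. The fit was tested on simulated data. No tested member repeated the values of another cluster.

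Members, role groups, pathway lists and settings were chosen with earlier results of these data known. A member is given array by array, in the comparisons it bears on, when it passed in a treatment comparison or in the difference between the lines, or was among the 5 largest differences between control cells in its role; in the pathway lists up to 3 called genes a comparison are named. Alternatives were other floors or none, median centring, renewed quantile normalization, an intensity trend, clusters with 1 symbol only, the replicate number as a block, other control sets, only the arrays compared, and leaving out each array. Same-numbered arrays deviated from their group means with correlations of -0.0443 to 0.0774 across clusters, so the numbers were not taken to pair samples.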

Additional observations from a re-analysis of the deposited data

Results flagged for a closer look

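For 8 members the change with EZH2 knockdown differed between HCC70 and MDA-MB-468 by the limma contrast of both changes (HCC70 minus MDA-MB-468, adjusted p under 0.05), which is why they are listed here. The difference was 1.64 for BNIP3, 1.12 for PFKFB3, 0.81 for BNIP3L, 0.76 for P4HA1, 0.67 for ADM, 0.46 for VEGFA and 0.41 for ANGPTL4, and -1.31 for LDHB, all in log2 units with 2 arrays a group. BNIP3 alone passed in all settings tried, none of which took the empty vector as the HCC70 control. LDHB, PFKFB3, BNIP3L and ANGPTL4 did not pass when scrambled set b stood in for set a.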

How the results depend on the processing

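With only the arrays compared in the fit, the calls over all clusters were 276 for EZH2 knockdown in HCC70 (1837 as reported), 21 in MDA-MB-468 (1343), 4439 for EED knockdown (2290), 0 for EZH2 overexpression by limma (158, and 1405 at an unadjusted p under 0.05), 500 for the difference between the lines (2141) and 6269 for set a minus set b (3677). Members called were then 2, 0 (9 at an unadjusted p under 0.05), 17, 0 (5) and 3 in the first 5 of these. Exchanging the scrambled sets gave 4325 clusters for EZH2 knockdown in HCC70 and 5940 for EED knockdown, with 16 members called for EED knockdown. Both sets together gave 3048 and 4465 clusters, again with 16 members for EED knockdown. With no filter on low signal 848 clusters were called in MDA-MB-468 and 88 for overexpression, and median centring gave 88 for overexpression. ADM, the 1 member called with overexpression, was lost (0 members) with a floor of log2 5 or no filter (7 at an unadjusted p under 0.05), with quantile normalization (8) and with the replicate block (8).

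The median change of glycolytic enzymes minus that of other hypoxia-induced genes was -0.27, 0.32, 0.02, 0.02 and -0.50 in the 4 treatment comparisons and the difference between the lines. It became -0.08 for EZH2 knockdown in HCC70 against set b, and -0.15 and -0.05 for EED knockdown against set a and both sets. In control cells it was 0.30, and 0.49 with a floor of log2 7. For set a minus set b it was 0.20, and 0.11 with a floor of log2 5 or 7 or no filter and 0.13 after quantile normalization.

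Leaving out 1 array at a time gave 688 to 1977 clusters and 4 to 8 members for EZH2 knockdown in HCC70 (median difference -0.37 to -0.22), 231 to 1552 and 1 to 5 in MDA-MB-468 (0.25 to 0.36), 1013 to 1128 and 4 for EED knockdown (-0.01 to 0.05), 14 to 97 and 0 for overexpression (4 to 6 at an unadjusted p under 0.05; -0.11 to 0.03), 921 to 2633 and 5 to 9 for the difference between the lines (-0.53 to -0.38), 9052 to 10618 and 23 to 25 for control cells (0.22 to 0.34), and 1604 to 2040 and 4 to 7 for set a minus set b (0.15 to 0.24).

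Some signs turned with the control set: against set b, shEZH2 gave LDHB 0.36, BNIP3L -0.32, PFKFB3 -0.16 and PFKP -0.36, and against set a, shEED gave BNIP3L 0.58. SLC2A1, at 0.00 with shEED against set b, was at 0.34 against set a. The cause was not tested. With the replicate number as a block, 1965, 1500, 2483, 145 and 2279 clusters were called in the 4 treatment comparisons and the difference between the lines; ADM was lost with EZH2 knockdown in HCC70 (adjusted p = 0.0574) and MDA-MB-468 (0.0539), PFKFB3 passed with EED knockdown (0.0437) and GPI in control cells (0.0395), and the numbers do not pair the samples.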
